A study of Homo sapiens with 9 samples.

Results

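The genes described here fell in steps from normal kidney cells to primary cancer cells and again to metastatic cells, and there were 150 of them among 12695 genes whose mean over the libraries reached 50 counts, out of 28395 in the table. They were chosen by their measured levels: the mean CPM (the counts of a gene scaled to a common library total of 1e6) in 786-O was at most 0.5 of that in HK2, the mean in 786-M1A was at most 0.5 of that in 786-O, and each 786-M1A library still had more than 10 counts. Their levels and folds are therefore given as a description, without a test. HK2 is a line of normal kidney proximal tubule cells, labelled parental, 786-O is a line from a primary clear cell renal cell carcinoma (ccRCC), and 786-M1A is a metastatic derivative of 786-O, grown out of lung metastases in vivo. No line received a treatment, all were grown stably in Plasmax, a medium made to resemble human plasma, and 3 libraries were sequenced per line. Each stage was represented by a single line, HK2 and 786-O come from different people, and the replicates are separate dishes of a line, so the spread between libraries is that of cultures and not of patients.

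Epithelial cells of the kidney tubule are joined to each other by desmosomes and adherens junctions, sit on a matrix of collagens and fibrillins, and carry receptors, channels and transporters on their surface. ccRCC arises from such cells, usually after loss of the VHL gene, and during its spread adhesion, matrix remodelling and receptor signalling are often altered. Among the genes that fell stepwise were members of each of these groups: the collagen COL5A1, the desmosome proteins PKP2 and JUP, the protease-activated receptors F2RL1 and F2RL2, the growth factor receptors FGFR2 and FGFR3, and the prostaglandin transporter SLCO2A1.

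The median member had 21.1 CPM in HK2, 5.11 CPM in 786-O, then 1.32 CPM in 786-M1A. The first step, from HK2 to 786-O, ran from 2.01-fold to 83.6-fold with a median of 3.25-fold, and the next step, from 786-O to 786-M1A, ran from 2.00-fold to 20.6-fold with a median of 3.13-fold. Over both steps the members fell by 4.27-fold to 307-fold, with a median of 11.8-fold. Both steps were under 4-fold for 70 members and at least 4-fold for 17. Only the first step reached 4-fold for 35, and only the next step for 28. Of all genes tested, 13.6% met the condition of the first step and 5.89% that of the next. No library of a lower line reached the lowest library of the line above it for any of the 150 members at either step, where 45.1% of all genes tested had every 786-O library below every HK2 library and 38.1% had every 786-M1A library below every 786-O library. As the means of these members were chosen to differ by at least 2-fold, nothing is read from that count. For 103 members, every library of the lower line was also at most 0.5 of every library of the higher line at both steps. Nothing is read from this count either, as the same values chose the members and its share over all genes tested was not computed.

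**Figure D1:**
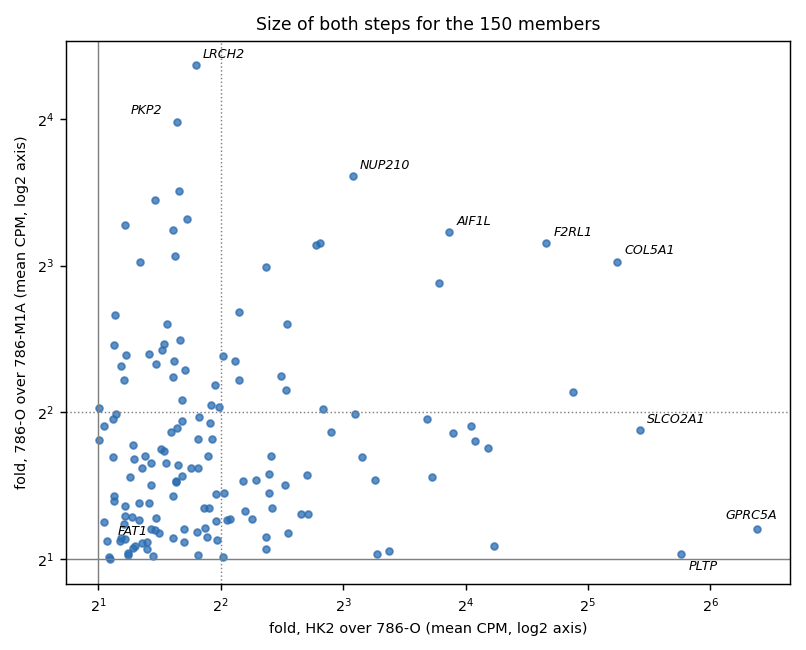
Fold of HK2 over 786-O (x axis) against fold of 786-O over 786-M1A (y axis), from mean CPM on log2 axes, with 1 point per member (n = 150). The solid lines mark the 2-fold limits of the selection and the dotted lines 4-fold; GPRC5A and PLTP lie far to the right and LRCH2 and PKP2 near the top, and 17 members lie beyond both dotted lines.

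The count limit in 786-M1A keeps out the genes that were nearly silent there. Without it 305 further genes met both steps, with a median of 10.7 CPM in HK2, 0.140 CPM in 786-O, then 0.00894 CPM in 786-M1A, so the members are those whose RNA was still counted in the metastatic line. Another 1267 genes met the first step and not the next, and 292 met the next step and not the first. In the opposite direction 51 genes at least doubled at each step. Members just inside a limit were BOLA1 (2.135-fold and 2.002-fold), ANKRD18B (2.011-fold and 3.511-fold) and ARHGAP24 (2.015-fold and 4.082-fold). FRAT1 (1.996-fold and 2.087-fold), KCNJ15 (1.993-fold and 7.416-fold) and MEX3A (3.690-fold and 1.983-fold) stood just outside.

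Between 30212291 and 45362428 counts were assigned to genes per library, and the members together took 0.773% to 0.806% of them in HK2, 0.208% to 0.214% in 786-O, then 0.0697% to 0.0753% in 786-M1A. The coefficient of variation between the libraries of a line had a median over members of 4.68% in HK2, 7.28% in 786-O, then 11.2% in 786-M1A. The lowest 786-M1A library held 11 to 3548 counts of a member, and 20 or fewer for 38 of them, so their values in that line are the least precise. In bulk RNA, fewer cells that express a gene and less RNA per cell cannot be told apart. Of the 59 genes of the proximal tubule list, 26 were tested and 9 were at 0 in all libraries, LRP2, SLC22A6 and SLC5A12 among them, while HAVCR1 (198, 137 and 80.4 CPM in the order HK2, 786-O, 786-M1A), GGT1 (111, 80.8 and 85.5 CPM) and DPP4 (82.8, 58.7 and 58.7 CPM) were well counted. The summed level of that list was 1337 to 1393 CPM in HK2, 1419 to 1570 CPM in 786-O, then 1160 to 1172 CPM in 786-M1A. CYP24A1 (536, 0.0393 and 0 CPM) was the largest part of the HK2 sum, and CD24 (154, 588 and 462 CPM) of the other sums. SLC16A9 (12.4, 0.197 and 0 CPM) fell, while ENPEP (5.11, 72.4 and 119 CPM) rose. Of the 25 tested that were no member, 12 were lower and 12 higher in 786-O than in HK2 (edgeR). In 786-M1A against 786-O, 11 were lower and 6 higher. Over all genes tested, 42.6% were lower and 41.6% higher in 786-O than in HK2. In 786-M1A against 786-O these shares were 28.0% and 27.9%, and they also stand beside the marker counts that follow. The leukocyte markers PTPRC, CD3E, MS4A1 and TYROBP were at 0 throughout, and the summed level of all 13 leukocyte markers was 63.2 to 66.7 CPM in HK2, 33.6 to 35.8 CPM in 786-O, then 37.1 to 41.2 CPM in 786-M1A. The 12 fibroblast markers summed to 85.4 to 94.6 CPM in HK2, 652 to 732 CPM in 786-O, then 1910 to 2268 CPM in 786-M1A. COL6A3 (4.38, 390 and 1817 CPM) and PDGFRB (5.13, 2.60 and 273 CPM) made up most of the last sum, whereas COL1A1 (55.1, 292 and 15.9 CPM) and LUM (23.1, 14.6 and 5.30 CPM) were lowest in 786-M1A, and of the 5 fibroblast markers tested 3 were lower and 2 higher in 786-M1A than in 786-O (edgeR). The 10 endothelial markers summed to 20.7 to 21.6 CPM, 13.3 to 15.4 CPM and 7.12 to 8.21 CPM in the same order. The 21 distal tubule markers summed to 1491 to 1549 CPM, 472 to 504 CPM and 699 to 791 CPM. KRT8 (681, 302 and 372 CPM) and KRT18 (439, 165 and 180 CPM) made up most of that sum in each line. KRT7 (270, 0.511 and 0.180 CPM) was lowest in 786-M1A, and KRT19 (108, 5.92 and 180 CPM) highest there. The 10 podocyte markers summed to 266 to 275 CPM, 676 to 734 CPM and 1017 to 1045 CPM in the same order. SYNPO (48.6, 596 and 932 CPM) made up most of the podocyte sum in both cancer lines, NES (144, 6.38 and 11.3 CPM) and PODXL (68.7, 58.1 and 41.2 CPM) were highest in HK2, and of the 5 tested 3 were lower and 2 higher in 786-O than in HK2, then 2 lower and 3 higher in 786-M1A than in 786-O. The part of these marker levels in the fall of the members was not tested.

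Neighbouring members offer a view of the DNA in front of genes that fell together. F2RL1 (chr5:76819030-76835315) and F2RL2 (chr5:76615482-76623403) are genes of the same receptor family 196 kb apart, and S100A2 (chr1:153561108-153565844) and S100A3 (chr1:153547329-153549258) lie 11.8 kb apart in a cluster of calcium-binding protein genes. The 250 bases before each start site follow, from RefSeq on GRCh38.p14, 5′ to 3′ on the strand of the gene, at chr1:153565845-153566094 (minus strand), chr1:153549259-153549508 (minus), chr5:76818780-76819029 (plus) and chr5:76623404-76623653 (minus). Capitals mark TGANTCA, the letters bound by AP-1, searched on both strands.
S100A2: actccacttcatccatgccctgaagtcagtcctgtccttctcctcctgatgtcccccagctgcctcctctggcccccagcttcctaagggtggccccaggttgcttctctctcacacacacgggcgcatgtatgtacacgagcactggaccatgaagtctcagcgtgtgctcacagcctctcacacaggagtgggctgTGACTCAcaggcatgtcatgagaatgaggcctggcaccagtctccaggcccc
S100A3: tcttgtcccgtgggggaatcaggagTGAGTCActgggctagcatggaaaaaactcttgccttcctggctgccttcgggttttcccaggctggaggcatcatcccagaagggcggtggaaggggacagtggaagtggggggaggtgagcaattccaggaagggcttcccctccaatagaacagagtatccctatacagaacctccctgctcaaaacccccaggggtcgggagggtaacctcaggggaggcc
F2RL1: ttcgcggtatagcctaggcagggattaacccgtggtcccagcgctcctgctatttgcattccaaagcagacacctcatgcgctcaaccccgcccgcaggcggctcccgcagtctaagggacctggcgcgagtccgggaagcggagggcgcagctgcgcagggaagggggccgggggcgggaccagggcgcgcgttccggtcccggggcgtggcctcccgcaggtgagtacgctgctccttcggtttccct
F2RL2: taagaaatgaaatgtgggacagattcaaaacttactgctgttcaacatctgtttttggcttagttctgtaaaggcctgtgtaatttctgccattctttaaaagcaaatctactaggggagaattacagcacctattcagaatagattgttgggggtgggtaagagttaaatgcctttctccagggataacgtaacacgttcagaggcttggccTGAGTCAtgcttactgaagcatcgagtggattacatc
The letters occurred once before S100A2, starting at -52 from the start site, once before S100A3, at -225, and once before F2RL2, at -37, and they were not found in the window of F2RL1. These 4 windows were picked among neighbouring genes with their matches known and do not stand for the members: TGANTCA occurred in 7 of the 118 member windows read (5.93%) and in 3.80% of the 10191 windows read for all genes tested. The other letters searched on both strands were ACGTG or GCGTG (59 of the 118 member windows and 58.3% of all), CACCTG (11.9% of member windows and 15.5% of all) and TGACGTCA (1.69% and 2.91%). The windows read cover 118 of the 150 members, or 78.7%, which is below the 80% needed to describe the members as a whole, so a comparison of motifs or CG content between members and all genes is void. A match of letters is not a site in use.

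COL5A1 encodes a chain of the fibril-forming collagen V and fell furthest of all members. It lies on chromosome 9 (134641803 to 134844843 on GRCh38). Its level was 194, 180 and 197 CPM in the 3 HK2 libraries, 5.83, 4.86 and 4.46 CPM in those of 786-O, and 0.590, 0.655 and 0.614 CPM in those of 786-M1A. The means of 190 ± 9.33, 5.05 ± 0.704 and 0.620 ± 0.0327 CPM (SD, n = 3) differed 37.7-fold at the first step and 8.15-fold at the next, or 307-fold over both. COL5A2, which encodes a partner chain and was no member, was at 8.29 CPM in HK2, 9.05 CPM in 786-O, then 2.82 CPM in 786-M1A. Its difference at the first step did not pass the threshold (log2 fold change 0.17, standard error 0.0849, edgeR adjusted p = 0.0737), and at the next it fell by 1.63 on the log2 scale (standard error 0.102, edgeR adjusted p = 1.16e-11).

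Other matrix members were FBN1, which encodes the microfibril protein fibrillin-1, SDC2, a heparan sulfate proteoglycan of the cell surface, and POGLUT2, a glucosyltransferase of the secretory pathway. FBN1 was at 259, 237 and 285 CPM in HK2, 64.7, 76.2 and 59.7 CPM in 786-O, then 24.1, 31.3 and 28.5 CPM in 786-M1A, a fall of 3.89-fold and then 2.39-fold. SDC2 took the larger step late, with 361, 372 and 357 CPM, then 171, 159 and 170 CPM, then 42.8, 43.5 and 42.7 CPM, which is 2.17-fold and 3.88-fold. POGLUT2 fell evenly, from 300, 315 and 309 CPM to 110, 109 and 114 CPM and on to 44.9, 45.2 and 47.1 CPM.

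Enzymes that cut the matrix, and an inhibitor of such enzymes, were among the members as well. MMP1, the interstitial collagenase, was at 86.1, 105 and 92.6 CPM in HK2, 5.15, 5.34 and 6.27 CPM in 786-O, then 1.66, 1.56 and 1.59 CPM in 786-M1A, 16.9-fold and then 3.49-fold lower. MMP9, a gelatinase, fell from 16.0, 17.4 and 17.2 CPM to 1.94, 1.57 and 2.17 CPM and 0.617, 0.604 and 0.538 CPM. SPINT1 encodes a membrane-bound inhibitor of the serine proteases that activate hepatocyte growth factor. Its levels in the same order were 47.5, 45.6 and 46.1 CPM, then 6.95, 6.73 and 6.63 CPM, then 0.751, 0.781 and 0.768 CPM, and the libraries of each line lay close together. Of the 50 other matrix proteases and inhibitors tested, 25 were lower and 23 higher in 786-O than in HK2 (edgeR adjusted p under 0.05), and 23 were lower and 15 higher in 786-M1A than in 786-O. Over all genes tested, 42.6% were lower and 41.6% higher at the first step, and 28.0% were lower and 27.9% higher at the next. In this and the following counts the members are left out, so a list lacks the genes that halved at both steps and stayed above the count limit.

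**Figure D2:**
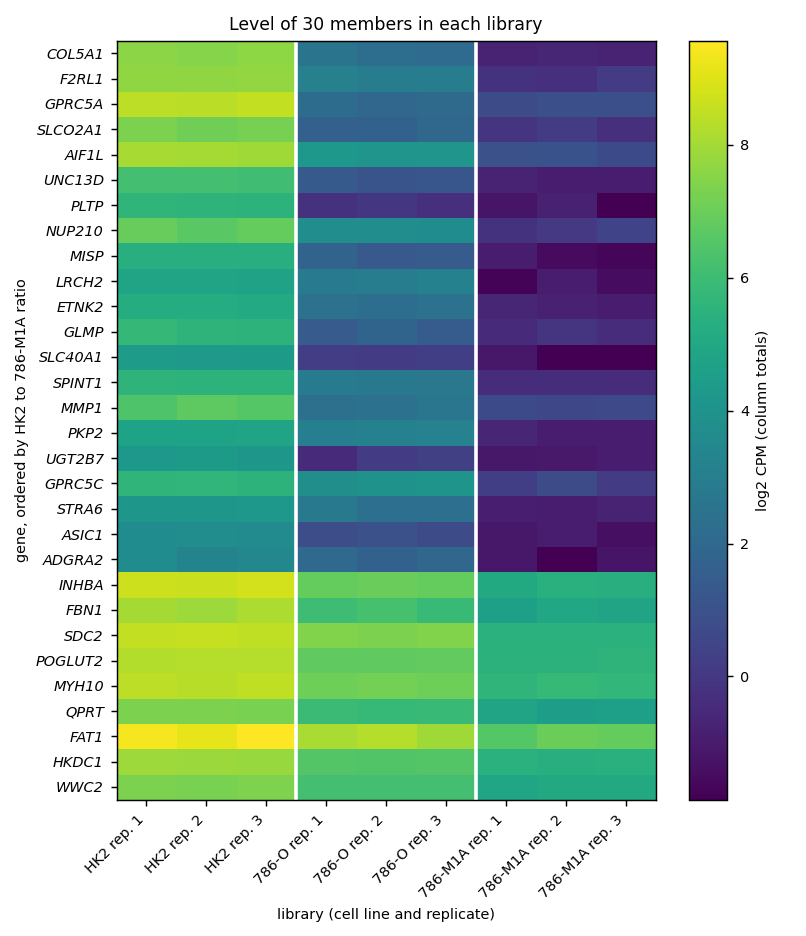
Log2 CPM of 30 members (rows, ordered by their HK2 to 786-M1A ratio) in each of the 9 libraries (columns); colours compare libraries within a row, since levels are not scaled by gene length. The 3 libraries of a line look alike in each row, and COL5A1 at the top runs from 190 CPM in HK2 to 0.620 CPM in 786-M1A while WWC2 at the bottom runs from 160 to 32.4 CPM.

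Junction members took part in both steps. PKP2 (plakophilin 2, which links desmosomal cadherins to the cytoskeleton) was at 27.4, 27.6 and 28.1 CPM in HK2, 8.37, 9.09 and 9.11 CPM in 786-O, then 0.644, 0.529 and 0.512 CPM in 786-M1A. The later step was the larger one for PKP2, 15.8-fold against 3.13-fold. JUP (plakoglobin, shared by desmosomes and adherens junctions) fell from 93.6, 86.1 and 92.9 CPM to 16.7, 16.6 and 15.1 CPM and to 3.65, 3.55 and 3.02 CPM. Among the 43 other genes of the epithelial junction list, 32 were lower and 7 higher in 786-O than in HK2 (edgeR), with a median log2 fold change of -1.02, against -0.0125 over all genes. Between 786-M1A and 786-O, 20 were lower and 8 higher, with a median of -0.173, against 0 over all genes. DSP (desmoplakin), chosen after its values were seen, met both steps but not the count limit: it was at 308 CPM in HK2, 0.578 CPM in 786-O, then 0.0953 CPM in 786-M1A. EPCAM, an epithelial adhesion molecule also chosen afterwards, fell from 76.1 to 0.575 CPM and was at 8.57 CPM in 786-M1A, a rise of 3.95 on the log2 scale over 786-O (standard error 0.141, edgeR adjusted p = 1.02e-15).

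Other adhesion members belonged to several families. FAT1, a very large cadherin, had 685, 562 and 756 CPM in HK2, 273, 311 and 243 CPM in 786-O, then 95.2, 128 and 116 CPM in 786-M1A. Its libraries were spread more widely than those of most members, with SDs of 98.3, 33.9 and 16.7 CPM (n = 3). As FAT1 was chosen by the distance between its means, nothing is read from the lack of overlap between lines. The closest libraries of successive lines stayed short of the fold required of the means. They held 562 CPM in HK2 against 311 CPM in 786-O, and 243 CPM in 786-O against 128 CPM in 786-M1A. ITGB6, an integrin chain that is confined to epithelia, fell from 87.7, 81.6 and 76.0 CPM to 27.9, 23.4 and 25.1 CPM and 6.46, 5.84 and 5.73 CPM. PCDH10, a protocadherin, fell 3.22-fold and 3.84-fold, and BCAM, which binds laminin, 3.21-fold and 2.96-fold. The neural adhesion genes SLITRK5 (3.10-fold and 2.87-fold) and CNTNAP3 (3.26-fold and 4.89-fold) were members too, though CNTNAP3 can share reads with near-identical copies and is uncertain. Of the 30 other cadherins and protocadherins, 12 were lower and 17 higher at the first step and 18 lower and 4 higher at the next. Of the 15 other integrin chains, 7 were lower and 7 higher, then 7 lower and 3 higher. Of 31 other collagens and laminins, 17 were lower and 11 higher, then 12 lower and 10 higher, and of 35 other neuronal and immunoglobulin-type adhesion genes, 15 and 17, then 16 and 13.

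G protein-coupled receptors contributed 6 members. F2RL1, the protease-activated receptor that trypsin-like enzymes cleave, had 203, 206 and 211 CPM in HK2, 8.57, 7.95 and 8.04 CPM in 786-O, then 0.885, 0.806 and 1.08 CPM in 786-M1A. It fell 25.3-fold and then 8.88-fold, or 225-fold over both steps. F2RL2, its neighbour, was at 8.94, 8.42 and 8.80 CPM, then 3.69, 3.91 and 3.65 CPM, then 0.402, 0.403 and 0.358 CPM, and took the larger step to 786-M1A (2.33-fold and 9.67-fold). F2R, the thrombin receptor of the same family and no member, was at 313 CPM in HK2, 50.2 CPM in 786-O, then 28.0 CPM in 786-M1A, and fell at both steps by 2.61 and 0.79 on the log2 scale (standard errors 0.0438 and 0.0471, edgeR adjusted p = 1.45e-22 and 5.37e-12).

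GPRC5A, an orphan receptor induced by retinoic acid, made the largest first step of all members. Its libraries held 348, 336 and 366 CPM in HK2, 4.55, 3.72 and 4.29 CPM in 786-O, then 1.69, 1.89 and 1.89 CPM in 786-M1A, an 83.6-fold and then a 2.30-fold fall. GPRC5C, a relative, did the reverse with 49.2, 50.4 and 45.5 CPM, then 13.7, 15.6 and 16.7 CPM, then 1.21, 1.74 and 1.08 CPM, which is 3.16-fold and 11.4-fold. The adhesion receptor ADGRA2 also took the larger step late, with 12.8, 9.73 and 11.3 CPM, 4.10, 3.22 and 3.74 CPM and 0.456, 0.277 and 0.435 CPM. S1PR2, a receptor for sphingosine-1-phosphate, fell 2.12-fold and 2.02-fold. Among the 75 other receptors of this class, 38 were lower and 32 higher in 786-O than in HK2, and 25 were lower and 26 higher in 786-M1A than in 786-O.

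Growth factors and their receptors were represented on both sides of the signal. FGFR3, a fibroblast growth factor receptor, was at 65.2, 59.3 and 59.0 CPM in HK2, 20.8, 19.2 and 20.2 CPM in 786-O, then 4.05, 4.46 and 4.22 CPM in 786-M1A. FGFR2 fell 3.05-fold and 2.69-fold, and the ligand EGF, which the distal nephron makes, 2.39-fold and 2.95-fold. FGFR1, a receptor of the family that was no member, was at 158, 128 and 87.3 CPM in the same order of lines, a fall of 0.27 and then 0.50 on the log2 scale (standard errors 0.0367 and 0.0374, edgeR adjusted p = 5.22e-07 and 2.48e-10). PROS1, protein S of the clotting system and a ligand of the TAM receptors, was at 86.6, 89.8 and 87.3 CPM, then 27.6, 32.0 and 32.7 CPM, then 8.23, 8.96 and 10.2 CPM. Of 43 other growth factor genes, 21 were lower and 18 higher at the first step, and 18 lower and 15 higher at the next.

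Cytokine signals held members as well. INHBA, the subunit of activin A, had 413, 399 and 439 CPM in HK2, 115, 125 and 117 CPM in 786-O, then 33.4, 42.3 and 40.2 CPM in 786-M1A, 3.52-fold and 3.07-fold. Others of the TGF-beta and BMP list were TGFB3, a ligand (2.52-fold and 2.40-fold), and BMPR1B, a receptor (2.66-fold and 5.27-fold). The 44 other genes of that list were lower in 18 and higher in 22 cases at the first step, and lower in 21 and higher in 9 at the next. IL11, a cytokine of the IL-6 family, fell from 41.2, 39.7 and 43.5 CPM to 14, 14.7 and 12.6 CPM and 3.70, 3.70 and 3.94 CPM. IL20RB, a receptor chain, fell 2.43-fold and 2.11-fold, while of the 56 other chemokine and cytokine genes 28 were lower and 23 higher, then 17 lower and 26 higher. HEY1, a target of NOTCH, fell 2.31-fold and 2.36-fold, and of the 31 other genes of NOTCH, Hippo and Hedgehog signalling 17 were lower and 10 higher, then 12 lower and 6 higher.

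The interferon-stimulated members were lower in 786-O than in HK2 by the rule that chose them, and most other genes of their list were higher in 786-O. HERC5, a ligase for the ubiquitin-like protein ISG15, was at 38.5, 41.9 and 37.6 CPM in HK2, 16.7, 17.5 and 16.7 CPM in 786-O, then 4, 3.27 and 3.69 CPM in 786-M1A. IFI44L had 38.2, 37.6 and 34.9 CPM, 10.9, 12.9 and 12.2 CPM and 5.44, 4.94 and 5.94 CPM. Of the 48 other interferon-stimulated genes tested, 42 were higher and 3 lower in 786-O than in HK2, with a median log2 fold change of 1.09, and 31 were lower and 8 higher in 786-M1A than in 786-O, with a median of -0.331. IFI44, the relative of IFI44L chosen after its values were seen, was at 12.1 CPM in HK2, 58.8 CPM in 786-O, then 29.3 CPM in 786-M1A, a rise of 2.32 and then a fall of 0.96 on the log2 scale (standard errors 0.0537 and 0.0481, edgeR adjusted p = 4.09e-20 and 3.21e-13). CD74, the invariant chain of class II antigen presentation, fell from 132, 132 and 130 CPM to 25.7, 24.5 and 24.1 CPM and 7.83, 7.93 and 7.09 CPM. Of 17 other antigen presentation genes, 4 were lower and 11 higher at the first step, and 3 lower and 4 higher at the next.

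**Figure D3:**
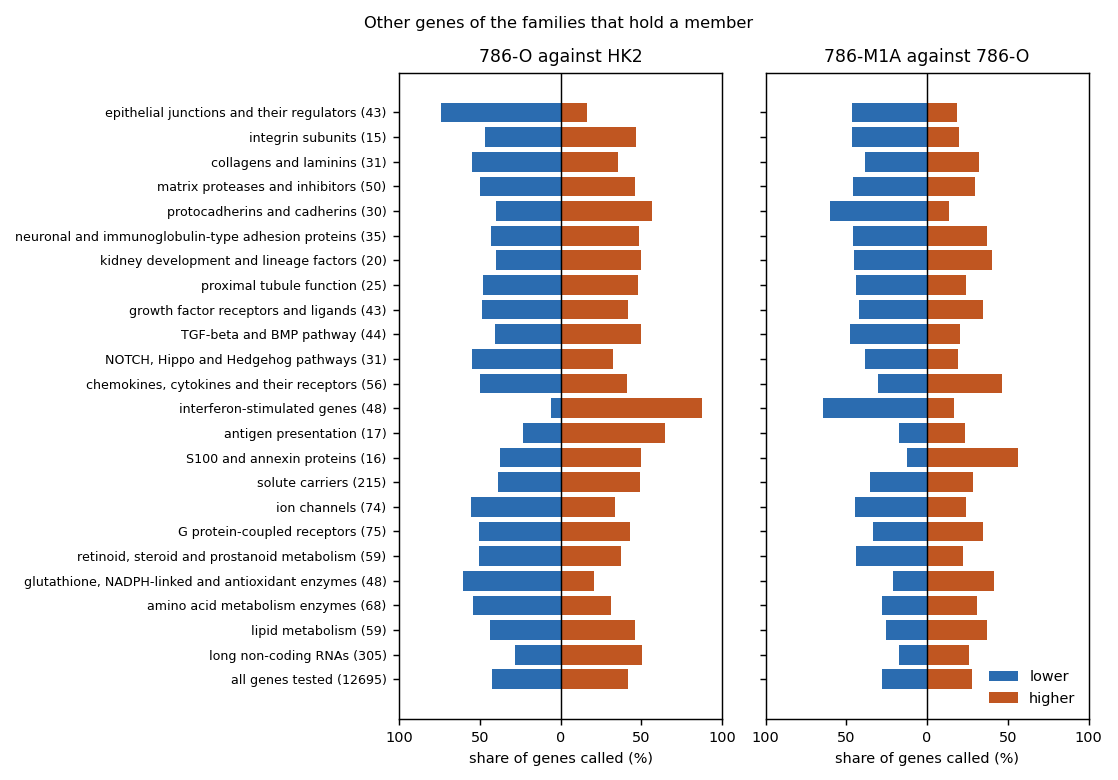
Share of genes in each list with a member (members left out, number of remaining genes in brackets, lists with at least 10, apart from 1 list not shown) that were lower (bars to the left) or higher (bars to the right) by edgeR at an adjusted p under 0.05, in 786-O against HK2 (left panel) and 786-M1A against 786-O (right panel). Junction genes have the longest bar to the left in the left panel (32 of 43), interferon-stimulated genes the longest to the right (42 of 48), and the bottom row shows all genes tested.

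The 4 members among calcium-binding S100 proteins and tetraspanins, which organise membrane proteins, took the larger step to 786-O. Over all members the first step was the larger for 83 and the next for 67. S100A2 was nearly even (3.10-fold and 2.89-fold), and the group was formed after the values were seen, so nothing is read from its count. S100A2 was at 104, 113 and 97.5 CPM in HK2, 34.7, 31.5 and 34.9 CPM in 786-O, then 11.7, 12 and 11.3 CPM in 786-M1A. S100A3 was at 10.4, 11 and 9.15 CPM, then 1.85, 1.41 and 1.43 CPM, then 0.429, 0.478 and 0.666 CPM. TSPAN15 fell 5.27-fold and 2.73-fold, and it lies 184 kb from HKDC1. The 16 other S100 and annexin genes were lower in 6 and higher in 8 cases at the first step and lower in 2 and higher in 9 at the next.

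Transport across the membrane was represented by carriers and channels. SLCO2A1, which takes up prostaglandins, had 157.3, 134.4 and 148.1 CPM in HK2, 3.17, 3.19 and 3.86 CPM in 786-O, then 0.912, 1.08 and 0.794 CPM in 786-M1A, 43.0-fold and then 3.67-fold lower. SLC40A1 (ferroportin, the exporter of iron) was at 21.6, 20.2 and 20.5 CPM, 1.15, 1.09 and 1.19 CPM, and 0.456, 0.277 and 0.282 CPM. STRA6, the receptor through which cells take up retinol, was at 18.3, 18.3 and 18.6 CPM, 6.71, 5.02 and 5.03 CPM, and 0.536, 0.529 and 0.614 CPM. The later step was the larger for STRA6, 9.98-fold against 3.30-fold. ASIC1, an acid-sensing sodium channel, was at 12.9, 13.5 and 12.6 CPM, then 1.78, 1.97 and 1.72 CPM, then 0.456, 0.504 and 0.384 CPM. The monocarboxylate carrier SLC16A7 fell 3.17-fold and 5.63-fold. PDZK1, a scaffold for transporters of the proximal tubule brush border, fell 2.27-fold and 2.21-fold, and can share reads with the transcribed pseudogene PDZK1P1, also a member, so both are uncertain. Of the 215 other solute carriers, 84 were lower and 106 higher at the first step, and 76 lower and 61 higher at the next. Of 74 other ion channel genes, 41 were lower and 25 higher, then 33 lower and 18 higher, and of 25 other proximal tubule genes, 12 and 12, then 11 and 6.

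Enzymes formed the largest assigned group, with 17 members and a median fall of 8.58-fold over both steps. ETNK2, an ethanolamine kinase of phospholipid synthesis, was at 36.9, 36.9 and 34.4 CPM in HK2, 5.22, 4.81 and 5.39 CPM in 786-O, then 0.644, 0.579 and 0.512 CPM in 786-M1A. UGT2B7, which glucuronidates steroids and drugs, was at 19, 20.4 and 18.3 CPM, 0.720, 1.12 and 1.24 CPM, and 0.456, 0.478 and 0.512 CPM, and belongs to a family of similar genes among which reads can be split. CYP2U1, a cytochrome P450 of fatty acids, fell from 29.6, 29.9 and 29.2 CPM to 11.9, 11.2 and 12 CPM and 1.37, 1.13 and 1.82 CPM. Enzymes with many counts fell evenly. QPRT, of NAD synthesis from tryptophan, was at 159, 161 and 155 CPM, 60.2, 55.9 and 56.6 CPM, and 27.9, 23.7 and 23.8 CPM, and HKDC1, a hexokinase, at 237, 227 and 226 CPM, 91.1, 87.5 and 91.0 CPM, and 42.9, 40.2 and 41.7 CPM.

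Lipid metabolism held PPARG, the nuclear receptor of fat storage, with 52.3, 54.1 and 53.7 CPM in HK2, 19.8, 20.3 and 20.5 CPM in 786-O, then 10.3, 9.64 and 8.91 CPM in 786-M1A. CPT1A, the gate of fatty acids into mitochondria, fell 2.32-fold and 2.45-fold, and the lipase PNPLA3 2.45-fold and 3.20-fold. Of the 59 other lipid genes, 26 were lower and 27 higher at the first step, and 15 lower and 22 higher at the next. PLTP, which transfers phospholipids between lipoproteins, was at 49.4, 47.7 and 46.5 CPM, 0.855, 0.984 and 0.811 CPM, and 0.429, 0.579 and 0.282 CPM, 54.2-fold and then 2.05-fold lower. PLTP overlaps CTSA, which was at 266, 246 and 228 CPM in the 3 lines, and use of the strand in counting is not given in the sources used here. The 786-M1A libraries held 11 to 23 counts of PLTP. Its fitted log2 fold change at the next step was -0.97 (standard error 0.229, edgeR), short of 2-fold. Without 786-M1A replicate 2 it was -1.26, the largest shift among the named members.

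CBS, which joins homocysteine to serine, fell 3.92-fold and 2.19-fold, and LOC102724560, a near-identical copy, 3.66-fold and 2.31-fold, so reads could be split between them. The same holds for the complement genes C4A (5.36-fold and 2.54-fold) and C4B (5.17-fold and 2.22-fold), 12.1 kb apart, and for AKR1C3 (3.14-fold and 3.12-fold) among its relatives. Of the other listed enzymes, 59 of retinoid, steroid and prostanoid metabolism were lower in 30 and higher in 22 cases at the first step and lower in 26 and higher in 13 at the next. The 48 others of glutathione and redox metabolism were lower in 29 and higher in 10, then lower in 10 and higher in 20. The 68 others of amino acid metabolism were lower in 37 and higher in 21, then lower in 19 and higher in 21.

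Cytoskeletal and vesicle genes included some of the deepest falls. AIF1L, an actin-binding protein, was at 270, 260 and 245 CPM in HK2, 18.8, 17.3 and 16.9 CPM in 786-O, then 1.98, 2.01 and 1.66 CPM in 786-M1A, 14.6-fold and 9.36-fold. UNC13D, which primes secretory granules for release, was at 70.6, 70.4 and 67.1 CPM, 2.61, 2.18 and 2.29 CPM, and 0.590, 0.504 and 0.512 CPM. MISP, which anchors the mitotic spindle to cortical actin, was at 40.1, 39.8 and 39.0 CPM, 3.40, 2.55 and 2.65 CPM, and 0.510, 0.353 and 0.307 CPM. As these 3 genes were chosen by the distance between their means, nothing is read from the gaps between their libraries. MYH10, a non-muscle myosin, fell less, from 346, 326 and 358 CPM to 133, 145 and 131 CPM and 49.5, 55.8 and 51.4 CPM, and it overlaps NDEL1, which was at 35.1, 48.0 and 51.6 CPM. Among signalling genes, WWC2, a Hippo pathway scaffold, was at 161, 153 and 165 CPM, 70.5, 70.9 and 70.7 CPM, and 29.3, 33.9 and 34.1 CPM.

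More genes with large falls stood outside these groups. NUP210, a nuclear pore protein, was at 120, 100 and 116 CPM in HK2, 13.5, 13.6 and 12.8 CPM in 786-O, then 0.885, 1.03 and 1.36 CPM in 786-M1A, 8.45-fold and 12.2-fold lower. LRCH2, a leucine-rich repeat protein on chromosome X, made the largest next step, 20.6-fold after 3.47-fold, with 28.0, 27.9 and 26.7 CPM, 7.09, 7.68 and 9.06 CPM, and 0.295, 0.504 and 0.358 CPM. GLMP, a glycoprotein of the lysosomal membrane, was at 53.8, 47.9 and 46.5 CPM, 2.66, 3.54 and 2.79 CPM, and 0.724, 0.906 and 0.768 CPM. The receptor FCGRT, which recycles antibodies and albumin and acts in the tubule, fell from 24.5, 26.5 and 24.0 CPM to 2.07, 1.49 and 2.27 CPM and 0.590, 0.478 and 0.435 CPM.

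The members were also grouped by known role, which was assigned after the values were seen. The larger step was the first for 83 members and the next for 67. The 10 adhesion and junction proteins took the larger step late in 7 cases, and the 14 cytoskeletal and membrane traffic proteins early in 10. Near ties are counted here, FAT1 (2.42-fold and 2.44-fold) among the 7, so no difference between these groups is read from the counts. Over both steps the median fall was 28.4-fold for 5 synaptic and vesicle release proteins, 22.2-fold for 10 lysosomal and immune proteins, 17.9-fold for 9 transporters, channels and their scaffold, 13.8-fold for 10 matrix proteins and proteases, 12.2-fold for the adhesion and junction proteins, 11-fold for 15 ligands and receptors and 11.7-fold for 10 transcriptional regulators. Within each group the folds spread widely, for ligands and receptors from 4.29-fold to 225-fold. In 26 members no role was assigned.

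**Figure D4:**
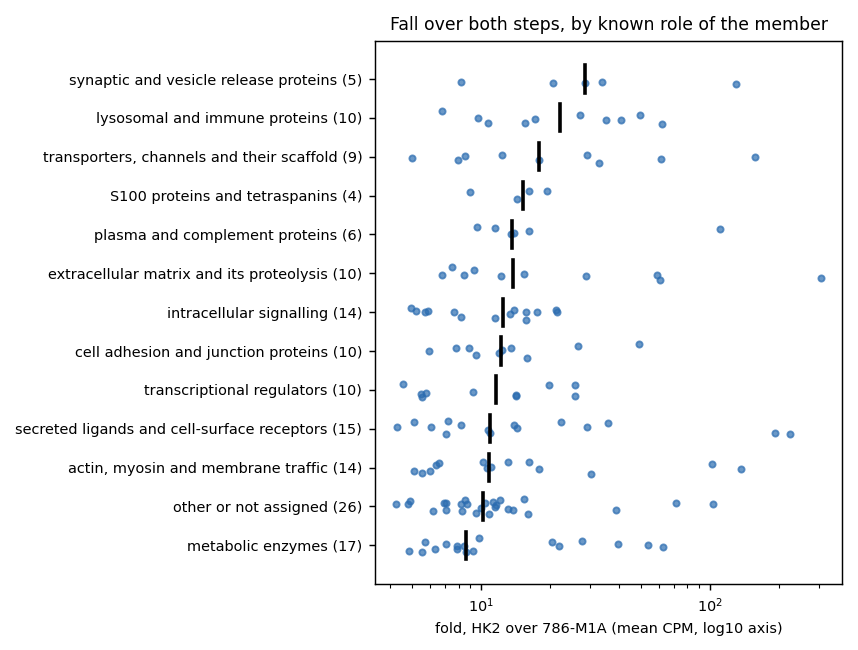
Fold of HK2 over 786-M1A from mean CPM (x axis, log10) for each of the 150 members (points), by the known role of its product (rows, number of members in brackets); black bars are medians. The medians run from 8.58-fold for metabolic enzymes to 28.4-fold for synaptic and vesicle release proteins, and the ranges of the groups overlap.

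Of the 42 gene lists, 55 members were in at least 1 and 95 in none. Lists without a member included keratins, HOX genes, HIF target genes, genes of glycolysis, WNT signalling, mesenchymal transition and chromatin regulation. The 447 zinc finger genes tested also held none. A list without a member can still have fallen. Of the 12 keratins tested, 8 were lower and 3 higher at the first step (edgeR), with a median log2 fold change of -1.26. At the next step 6 were lower and 4 higher, with a median of -0.305. KRT7 (270, 0.511 and 0.180 CPM in HK2, 786-O and 786-M1A) met both steps but not the count limit. Of the 37 HIF target genes tested, 11 were lower and 22 higher, then 7 lower and 23 higher. The 2270 other listed genes together were lower in 1010 and higher in 950 cases at the first step, and lower in 721 and higher in 612 at the next, with median log2 fold changes of -0.0440 and -0.0325.

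Position in the genome was not used to choose the members. Chromosome 4 held 19 of the 150, or 12.7%, and 3.76% of the genes tested, which makes 3.98 members per 100 genes tested there, against 1.48 on chromosome 1, which also held 19. Of those on chromosome 4, FGFR3 and SH3TC1 lay in the first 8241103 bases, no member lay among the 111 genes tested between there and base 69051375, and 17 lay among 294 genes tested from UGT2B7 at that base to FAT1, which ends at 186726696. The limits of these stretches were set at members after their positions were seen. The empty middle stretch follows from that choice, and ending the last stretch on members raises its density. Genes of the last stretch that were no member had a median log2 fold change of -0.36 in 786-O against HK2. In 786-M1A against 786-O it was -0.04. Over the whole chromosome the medians were -0.29 and -0.03. Chromosome 14, where the other genes had the lowest median at the first step (-0.74), held 1 member, TGFB3, and chromosome 15, where they had the lowest median at the next step (-0.31), held 4. Chromosome 18 held none of its 181 genes tested. Copy number was not measured here.

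**Figure D5:**
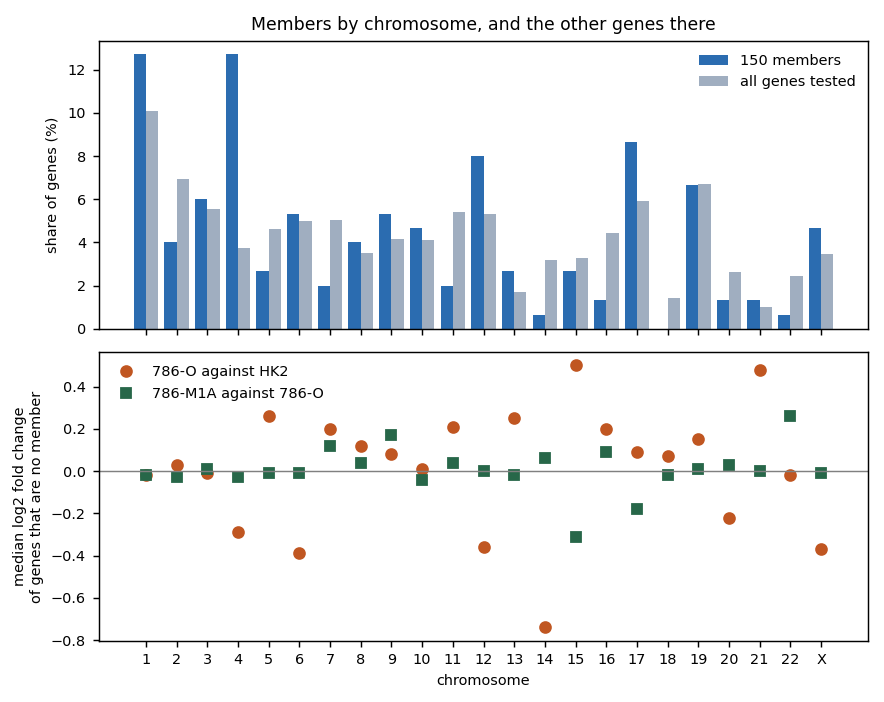
Top: share (%) of the 150 members and of all genes tested on each chromosome; bottom: median log2 fold change, on each chromosome, of the genes that are no member, in 786-O against HK2 (circles) and 786-M1A against 786-O (squares). Chromosome 4 has the largest gap between its share of members (12.7%) and of genes tested (3.76%), and chromosome 14 the lowest circle (-0.74).

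In all, 35 members had another member within 1 Mb. Besides the pairs above, SLCO2A1 and RAB6B lay 36.8 kb apart, PLTP and MMP9 96.8 kb, CDKN2AIP and WWC2 124 kb, GPRC5A and FAM234B 126 kb, and MPP2 and HDAC5 167 kb. Some neighbours fell by unlike amounts. GPRC5A fell 83.6-fold at the first step and FAM234B 2.61-fold, and SLCO2A1 43.0-fold and RAB6B 2.32-fold. CDKN2AIP, whose product binds the tumour suppressor ARF, fell 5.18-fold and 2.10-fold, and WWC2 2.26-fold and 2.18-fold. The genomic span of the members had a median of 43.4 kb (quartiles 17.4 and 101 kb, n = 150), and that of all genes tested with a position 30.9 kb (12.5 and 76.0 kb, n = 12664). Protein-coding genes made up 149 of the 150. For 12 members another counted gene with a mean of at least 50 counts overlaps on one strand or the other, so shared reads are possible; beside PLTP and MYH10 these include GPRC5A with MIR614 (5.05, 0.103 and 0.0777 CPM in HK2, 786-O and 786-M1A), ADGRA2 with BRF2 (13.8, 10.2 and 9.04 CPM) and RAB6B with SRPRB (93.6, 91.3 and 94.6 CPM). Their part in the members' values was not tested.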

How the data were processed

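RNA of HK2, 786-O and 786-M1A cells was sequenced from TruSeq Stranded mRNA libraries on a NextSeq, 3 libraries per line. The authors counted reads on genes of the hg38 build with Rsubread (featureCounts in the submitters' processing notes) and deposited raw counts, with no filter or normalization; annotation version and strand use are not given in the sources used here. Groups came from the sample labels. Symbols, positions and promoter sequences came from RefSeq on GRCh38.p14, which matched 27745 of 28395 identifiers.

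CPM used column totals. The members and the gene lists were chosen with earlier results of these data known. Other genes were compared with edgeR 4.0.16 (R 4.3.3; TMM factors 0.967 to 1.03, robust quasi-likelihood fit of all 9 libraries, a minimum mean of 50 counts, Benjamini-Hochberg adjustment over 12695 genes, threshold 0.05). This replaced the log2, VSN and limma steps of the study, since the values are counts. P-values measure the spread between dishes of a line. The biological coefficient of variation was 3.93%. A depth of 30212291 to 45362428 counts puts 3 counts at 0.0661 to 0.0993 CPM, which covers counting error only. Replicates differed by more than sampling noise (mean chi-square per gene 3.14 to 8.78, against 1), so none was counted as a copy. Standard errors came from the fold change and the F statistic.

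Named members were those in a list, the 12 with the largest HK2 to 786-M1A ratio, the 12 with the most counts, the 3 nearest inside the limits and those within 1 Mb of another, with values per library for at most 30 by ratio, and for further named members chosen after their values were seen. SH3TC1 and PDZK1P1, and the genes that were no member (COL5A2, DSP, EPCAM, F2R, FGFR1, IFI44 and the cell type markers), were outside this rule and chosen after their values were seen. One gene was left out of the membership, and it and the counts of 1 gene list are not reported here. On simulated counts for 12695 genes with 200 changed, edgeR called 200 changed and 11 unchanged genes for 786-O against HK2. For 786-M1A against 786-O it called 200 and 10. Far fewer genes were changed there than were called in the data (42.6% lower and 41.6% higher at the first step). The simulation therefore does not give the error of the calls in the data. Alternatives were RLE and upper-quartile scaling, column totals, DESeq2 1.42.0, limma 3.58.1, other filters, fits without the line not compared, a block by replicate number, and fits that each left out a library. Figures used Python 3.11.15 and matplotlib 3.10.9.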

Additional observations from a re-analysis of the deposited data

How the results depend on the processing

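The number of members was 387 with steps of at least 1.5-fold, 52 with steps of at least 3-fold and 455 without the limit on 786-M1A counts. It was 139 on TMM-scaled CPM, all of them among the 150, and 150 to 162 when each library was left out in turn, with 16 of the 150 missing from at least 1 of these 9 selections. Without a filter on low counts, 1642 other listed genes in place of 1010 were lower in 786-O than in HK2, and the genes lower by at least 2-fold numbered 3310 in place of 1664 in 786-O against HK2 and 1127 in place of 578 in 786-M1A against 786-O. These counts rose because more genes were tested. When each library was left out, the other listed genes ran from 982 to 1020 lower and from 921 to 955 higher at the first step, and from 659 to 727 lower and from 557 to 621 higher at the next.

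For 90 named members, 2694 of 2700 log2 fold changes under the alternatives moved by less than 1 SD, 6 by more and 0 changed direction. This SD is that of a difference between single libraries of the lines compared. Leaving out a library shifts a mean by little against it, so that count is not read as stability. Members were chosen to fall by at least 2-fold at each step, so nothing is read from the lack of a change in direction. Of the 2700 values, 70 fell short of 2-fold. In the main edgeR fit 138 of the 150 members had a log2 fold change of -1 or lower at both steps, and on column totals 150 did. The largest shift was 0.284 on the log2 scale, for PLTP without 786-M1A replicate 2. The median of all genes moved by at most 0.05 over the scalings. With a block by replicate number (replicate block), the counts of other listed genes were 1012 lower and 946 higher at the first step and 713 lower and 615 higher at the next. Same-numbered libraries deviated together with correlations of -0.057 to -0.029 across genes for 786-O and HK2, and of 0.074 to 0.215 for 786-M1A and 786-O. Unlike-numbered libraries were not compared in this way, so whether the numbers pair 786-M1A and 786-O was not tested. Depth limits the members with few counts: the lowest 786-M1A library held 20 or fewer counts for 38 of them.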
